A study of Homo sapiens with 24 samples.

Results

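The subject is 7 T-box transcription factor genes with known roles in the heart: TBX1, TBX2, TBX3, TBX4, TBX5, TBX18 and TBX20. They were taken by name from the 62757 genes of the deposited count table, and all 7 had enough counts to be tested. T-box proteins bind DNA through a shared domain and either raise or repress the transcription of nearby genes. In the heart, TBX5 and TBX20 act with NKX2-5 and GATA4 on chamber muscle genes, while TBX2 and TBX3 repress those genes in the atrioventricular canal and the conduction system. TBX18 marks the sinus horns, where the pacemaker forms, and the epicardium. TBX1 acts in pharyngeal and second heart field progenitors of the outflow tract, and TBX4 is best known from limb and lung mesenchyme.

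RNA was sequenced from embryoid bodies of HES3, a human embryonic stem cell line, that had been differentiated to heart cells by modulating Wnt signalling for at most 14 days. Every library, the controls included, came from a line carrying a GFP reporter at NKX2-5 and an mCherry reporter at NR2F2. CRISPR-Cas9 targeted LHX2, ZNF503 or ZNF711, or TRAC, a T cell receptor gene that served as the control target. Each target was taken through 2 protocols: AM, with retinoic acid at day 4, and VM, without it, taken here to stand for atrial and ventricular differentiation, which the labels do not spell out. The 8 groups are therefore AM and VM cells with TRAC, LHX2, ZNF503 or ZNF711 targeted, with 3 libraries in each, numbered 1 to 3. The labels do not say whether libraries of a group came from separate cultures or clones, so the p-values measure only the spread between these samples. The 24 libraries held 2899786 to 7438010 counts. Values are counts scaled to library size as CPM, and a gene was called where the adjusted p of edgeR's quasi-likelihood test, over 17724 tested genes, was under 0.05.

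The labelled cell type, cardiomyocyte, was checked with 11 muscle markers, whose summed level was 15959 to 32699 CPM in AM and 13029 to 43174 CPM in VM. Of 8 atrial markers, 6 were called higher and 1 lower in AM over the 4 targets, and all 6 ventricular markers were called lower. Of all tested genes, 34.5% were called there. The atrial markers summed to 992 to 1970 CPM in AM and 967 to 1787 CPM in VM, which overlapped. The ventricular markers summed to 153 to 585 CPM in AM and 645 to 1934 CPM in VM. The VM libraries fell into separate sets: replicates 1 and 2 of TRAC, LHX2 and ZNF503 held 39054 to 43174 CPM of muscle markers, whereas replicate 3 of these targets and all VM ZNF711 libraries held 13029 to 22707 CPM. The 10 endoderm markers, among them ALB and AFP, summed to 1704 to 4050 CPM in the first set and 8457 to 24605 CPM in the second. In AM they summed to 566 to 2573 CPM. In bulk RNA, fewer cells of a type and less RNA per cell cannot be told apart. The RNA of the targeted genes gave a mixed check of the labels. ZNF503 was higher in the libraries labelled ZNF503 than in TRAC (254 to 365 against 103 to 122 CPM in AM, 19.1 to 45.1 against 8.77 to 16.2 CPM in VM), LHX2 had at most 27 counts in any TRAC or LHX2 library, and ZNF711 was at 31.1 to 55.6 against 47.2 to 60.04 CPM in AM and 25.8 to 33.8 against 34.5 to 47.7 CPM in VM.

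Some of the 7 genes are chromosomal neighbours. TBX2 (chr17:61399896-61409466, plus strand) and TBX4 (chr17:61452404-61485110, plus strand) are 42.9 kb apart in GRCh38, and TBX5 (chr12:114353931-114408442, minus strand) and TBX3 (chr12:114670254-114684164, minus strand) are 262 kb apart. TBX18 is at chr6:84687351-84764519 and TBX20 at chr7:35202430-35254147, both on the minus strand, and TBX1 is at chr22:19756703-19783593 on the plus strand. The upstream sequences of 3 genes are shown because these genes moved apart between the protocols: TBX5 and TBX18 were higher in AM and TBX20 was higher in VM. They come from the RefSeq promoter table for GRCh38.p14, which held 5 of the 7 genes, and stop before both the RefSeq and the outermost GENCODE 29 start site. Capitals mark matches on either strand to a CCAAT box, searched by those letters, or to the GC box, searched by the letters GGGCGG.
TBX5, chr12:114408443-114408692, minus strand: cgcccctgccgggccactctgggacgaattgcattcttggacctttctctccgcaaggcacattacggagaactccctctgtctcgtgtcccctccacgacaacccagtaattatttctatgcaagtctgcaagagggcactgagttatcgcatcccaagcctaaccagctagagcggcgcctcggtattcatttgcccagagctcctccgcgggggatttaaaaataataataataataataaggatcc
TBX18, chr6:84764599-84764848, minus strand: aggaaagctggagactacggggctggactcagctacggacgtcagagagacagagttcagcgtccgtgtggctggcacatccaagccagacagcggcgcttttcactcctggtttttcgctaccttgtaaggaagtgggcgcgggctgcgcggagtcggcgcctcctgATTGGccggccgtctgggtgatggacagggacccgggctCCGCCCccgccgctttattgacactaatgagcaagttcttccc
TBX20, chr7:35254148-35254350, minus strand: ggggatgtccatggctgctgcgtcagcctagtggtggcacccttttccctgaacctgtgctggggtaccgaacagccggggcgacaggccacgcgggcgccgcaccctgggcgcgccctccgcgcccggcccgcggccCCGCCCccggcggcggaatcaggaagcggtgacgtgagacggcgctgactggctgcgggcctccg
The TBX20 stretch had 74.9% G and C over 203 bases, the TBX18 stretch 61.6% and the TBX5 stretch 51.2% over 250 bases each, beside a median of 58.0% over 35116 promoters. Letters of 5 further motifs were searched on both strands, and none was found in any of the 3 stretches. They were GTGTGA, for a T-box motif, present upstream of the start in 9.90% of all promoters over 250 bases. The retinoic acid receptor motif was AGGTCA, present in 12.1% of the same windows. The motif searched for GATA factors was AGATAA, present in 9.17%, and that for NKX2-5 was CAAGTG, present in 9.5%. The TATA box was searched as TATAAA, present in 10.7%. The TBX18 stretch held 1 CCAAT box, found in 32.0% of promoters, and 1 GC box, found in 42.6%. TBX20 held 1 GC box, and TBX5 held neither.

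The first question was which of the 7 genes differed between the retinoic acid protocol and the protocol without it. Averaged over the 4 targets, TBX4, TBX18 and TBX5 were higher in AM by 5.49, 3.67 and 2.39 times, and TBX20 and TBX2 were lower by 3.51 and 2.69 times. TBX1 and TBX3 were not called. That made 5 of 7 genes called (edgeR), beside 34.5% of all tested genes in this comparison. Between the TRAC controls, 5 of 7 were called beside 11.3% of all genes, in LHX2 5 beside 8.56%, in ZNF503 4 beside 8.86% and in ZNF711 3 beside 13.2%. With libraries of one replicate number treated as a block within each protocol, TBX1 joined the calls over the 4 targets (6 of 7 beside 45.0% of genes) and between the TRAC controls (6 of 7 beside 23.7%). In replicates 1 and 2 alone, 6 of 7 were called over the 4 targets, beside 25.0% of genes.

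**Figure D1:**
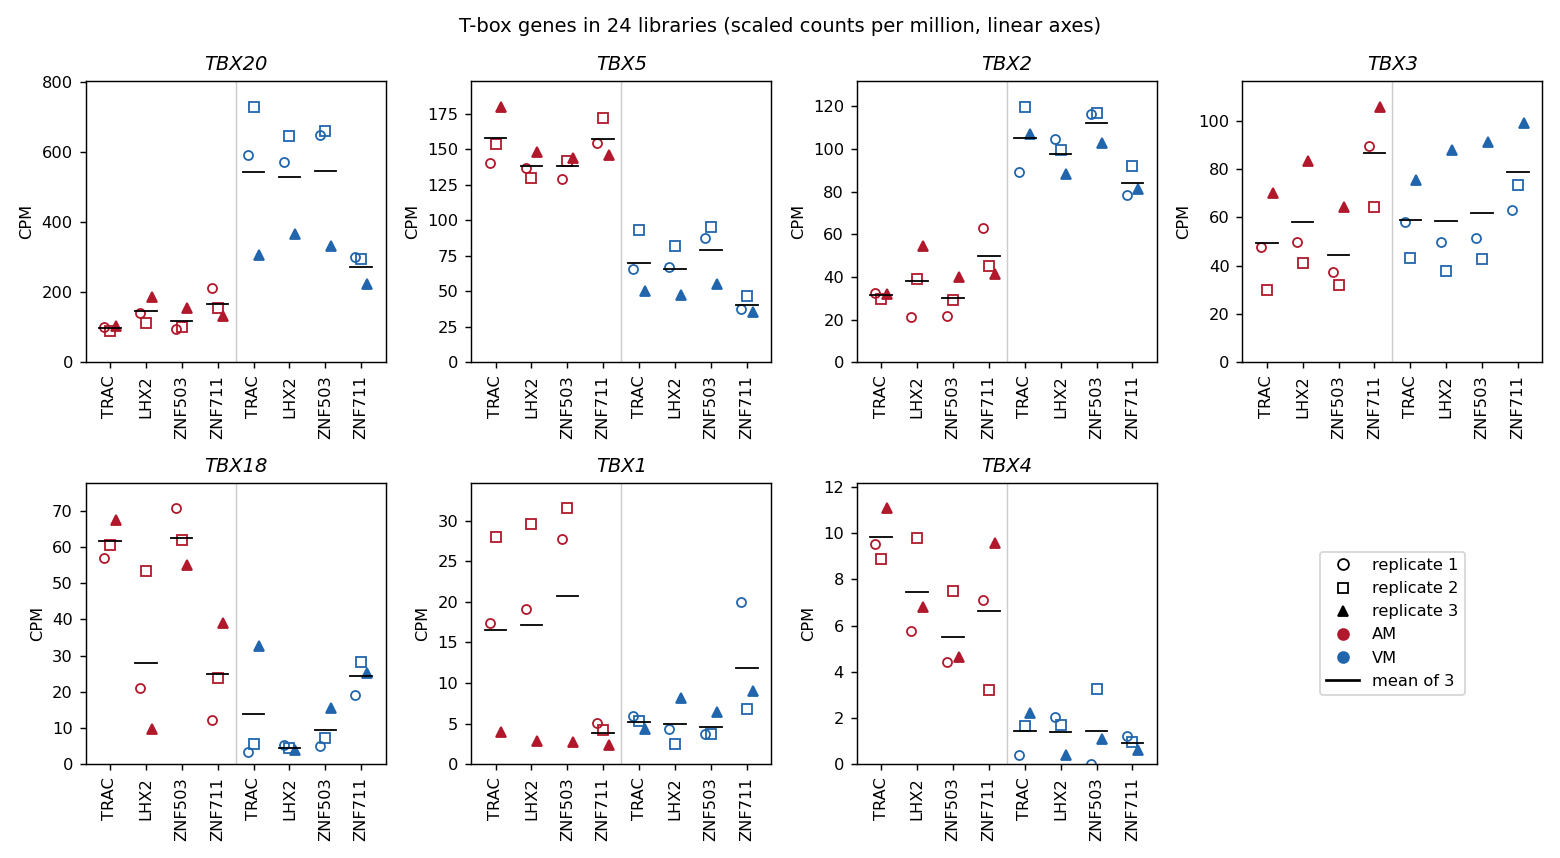
Level of each T-box gene in the 24 libraries, as scaled CPM on linear axes from 0; red is AM, blue is VM, the marker shape gives the replicate number and the line the mean of 3 libraries. TBX20 and TBX2 lay lower in every AM library than in any VM library, TBX5 lay higher, and TBX1 was above 17 CPM in AM only in replicates 1 and 2 of TRAC, LHX2 and ZNF503.

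TBX5 encodes an activator of atrial and septal muscle genes. In AM its level in replicates 1, 2 and 3 was 140.1, 153 and 180.0 CPM with TRAC targeted, 137, 130.02 and 148 with LHX2, 129, 142 and 144 with ZNF503, and 155, 172 and 146 with ZNF711. In VM it was 65.9, 93.3 and 49.9 CPM with TRAC, 67.0, 81.8 and 47.7 with LHX2, 87.6, 95.3 and 55.0 with ZNF503, and 37.9, 47.1 and 35.4 with ZNF711. Every AM library was above every VM library, and in VM replicate 3 was the lowest of each group. The AM to VM difference was 1.26 on the log2 scale over the 4 targets (SE 0.10, edgeR adjusted p 7.10e-10), and AM was higher in 12 of 12 pairs of libraries with the same target and number. By target it was 1.18 for TRAC (adjusted p 0.000346), 1.08 for LHX2 (0.00115), 0.80 for ZNF503 (0.0134) and 1.97 for ZNF711 (7.42e-07), all by edgeR. The ZNF503 value missed the threshold without VM ZNF503 replicate 3 (0.60, adjusted p 0.0983 by edgeR) and in replicates 1 and 2 only (0.57, 0.059). Among the groups, the 4 AM means were 138 to 158 CPM, and groups next to each other in order of mean overlapped, although all AM ZNF711 libraries (146 to 172 CPM) lay above all AM ZNF503 libraries (129 to 144 CPM). The VM means of ZNF503, TRAC and LHX2 (79.3, 69.7 and 65.5 CPM) also overlapped, and the 3 VM ZNF711 libraries lay below all other libraries at a mean of 40.1 ± 6.14 CPM (SD, n = 3).

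TBX5-AS1, a noncoding gene on the opposite strand overlapping TBX5, differed in the same direction. It stood at 24.3 to 58.0 CPM in the 12 AM libraries (median 39.7) and at 1.87 to 10.5 CPM in the 12 VM libraries (median 4.96). No AM library overlapped a VM library, and the difference was 2.84 on the log2 scale over the 4 targets (SE 0.14, edgeR adjusted p 4.51e-14), or 7.18 times. The exons of TBX5 and TBX5-AS1 share 252 bases in GENCODE 29 and the strand setting of the counting is not given, so reads from the overlap cannot be assigned to one of them. TBX2-AS1, which shares 0 exon bases with TBX2, was at 1.82 to 7.22 CPM in AM and 8.75 to 23.0 CPM in VM. It fell with TBX2, by 1.76 on the log2 scale (SE 0.19, edgeR adjusted p 6.69e-08). TBX3-AS1 had 14 counts in all libraries together and TBX18-AS1 had none, so neither was tested.

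**Figure D2:**
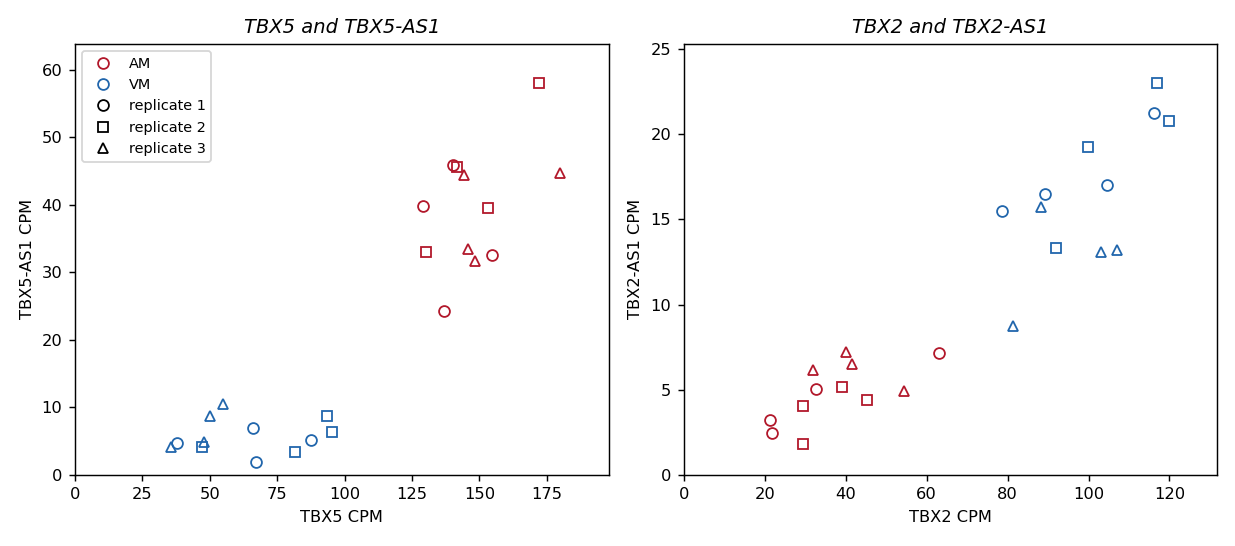
CPM of the antisense genes TBX5-AS1 and TBX2-AS1 against CPM of TBX5 and TBX2, 1 point per library, linear axes from 0, red for AM and blue for VM. AM libraries held 24.3 to 58.0 CPM of TBX5-AS1 and VM libraries 1.87 to 10.5 CPM, while TBX2-AS1 reached at most 7.22 CPM in AM.

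TBX20 encodes a factor needed for chamber growth, and was the most abundant of the 7 per length. In VM its level in replicates 1, 2 and 3 was 591, 731 and 307 CPM with TRAC, 572, 648 and 367 with LHX2, 649, 661 and 333 with ZNF503, and 302, 295 and 224 with ZNF711. In AM it was 101, 91.1 and 103 CPM with TRAC, 141, 112 and 186 with LHX2, 96.7, 102 and 155 with ZNF503, and 213, 155 and 134 with ZNF711. All AM libraries lay below all VM libraries, and VM replicate 3 and VM ZNF711 lay below the other VM libraries. TBX20 fell by 1.81 in AM on the log2 scale over the 4 targets (SE 0.16, edgeR adjusted p 9.35e-09) and was lower in 12 of 12 same-number pairs. It fell by 2.47 between the TRAC controls (adjusted p 1.94e-05), by 1.85 in LHX2 (0.000452) and by 2.22 in ZNF503 (6.23e-05), all by edgeR. With ZNF711 targeted the value was -0.71 and missed the threshold (edgeR adjusted p 0.135). With the block within each protocol it was called (edgeR adjusted p 0.0201), as part of 5 of 7 genes beside 27.8% of all genes.

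The spread of TBX20 in VM went with the muscle marker signal. Set against the summed level of the 11 muscle markers, TBX20 was at 13.7 to 18.1 CPM per 1000 CPM of marker in all 12 VM libraries, although its own level spanned 224 to 731 CPM. In the 12 AM libraries the ratio was 4.13 to 7.21, with no overlap between the protocols. TBX5 also separated by protocol on this scale, at 5.24 to 8.09 per 1000 CPM in AM and 1.53 to 2.89 in VM. This ratio was chosen after the values had been seen and is given as a description. The markers themselves differed by protocol. Over the 4 targets, 6 of the 11 were called lower in AM and none higher, with a median of -0.39 on the log2 scale. Of all tested genes, 34.5% were called in that comparison. Among the 6 was MYH7, at -3.74 (SE 0.28, edgeR adjusted p 7.56e-09).

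**Figure D3:**
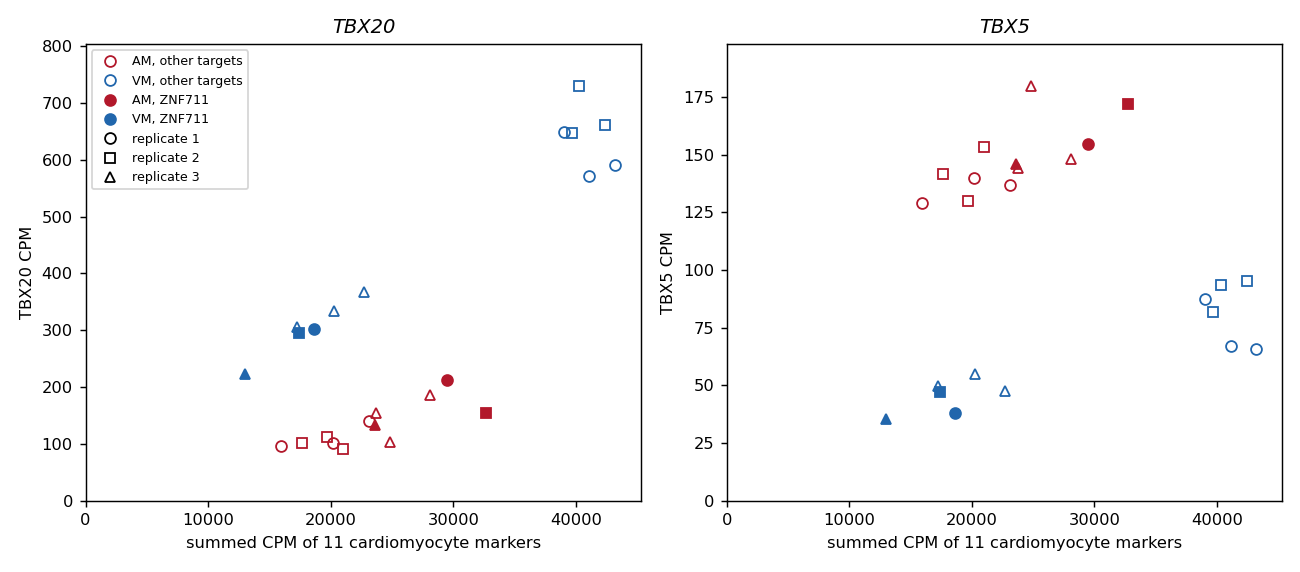
CPM of TBX20 (left) and TBX5 (right) against the summed CPM of 11 cardiomyocyte markers in each of 24 libraries, linear axes from 0; red is AM, blue is VM, filled points are ZNF711. The ratio of each library was 13.7 to 18.1 CPM of TBX20 per 1000 CPM of marker in the 12 VM libraries and 4.13 to 7.21 in the 12 AM libraries.

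TBX2 and TBX3, close paralogues that repress chamber genes, differed from each other. TBX2 was at 32.6, 29.6 and 32.0 CPM in AM with TRAC, 21.4, 39.1 and 54.4 with LHX2, 21.8, 29.4 and 39.98 with ZNF503, and 62.9, 45.2 and 41.5 with ZNF711. In VM it was at 89.3, 119.9 and 107 CPM with TRAC, 105, 99.8 and 88.4 with LHX2, 116, 117 and 103 with ZNF503, and 78.5, 91.9 and 81.2 with ZNF711. The AM libraries all lay below the VM libraries, and VM replicate 3 did not stand apart. TBX2 fell by 1.43 in AM on the log2 scale over the 4 targets (SE 0.12, edgeR adjusted p 4.34e-10). It fell by 1.75 between the TRAC controls (adjusted p 1.06e-05), by 1.33 in LHX2 (0.000356), by 1.88 in ZNF503 (4.24e-06) and by 0.75 in ZNF711 (0.0295), by edgeR. The ZNF711 call held in 1 of 6 fits that left out a library, the one without AM ZNF711 replicate 1, and the adjusted p reached 0.130 without AM ZNF711 replicate 3 (edgeR). In replicates 1 and 2 only it was 0.0836.

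TBX3, which also marks the conduction system, was at like levels in both protocols. It stood at 47.7, 30.0 and 70.1 CPM in AM with TRAC, 49.8, 40.9 and 83.3 with LHX2, 37.2, 32.1 and 64.2 with ZNF503, and 89.4, 64.2 and 106 with ZNF711. In VM it stood at 57.9, 43.4 and 75.6 CPM with TRAC, 49.96, 37.9 and 88.0 with LHX2, 51.6, 42.7 and 91.2 with ZNF503, and 63.0, 73.5 and 99.2 with ZNF711. Replicate 3 was the highest library in all 8 groups, and the AM and VM ranges overlapped for every target. Over the 4 targets the difference was -0.15 on the log2 scale (SE 0.19, edgeR adjusted p 0.591). For ZNF503 alone it was -0.48 (edgeR adjusted p 0.58). There the replicate block called it lower (edgeR adjusted p 0.0264) and so did the block within each protocol (0.0133). In this comparison the replicate block called 6 of 7 genes beside 14.9% of all genes, and the block within each protocol 7 of 7 beside 18.9%.

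TBX18, which marks pacemaker progenitors of the sinus horns, varied widely within groups. In AM it stood at 57.1, 60.5 and 67.6 CPM with TRAC, 21.1, 53.3 and 9.66 with LHX2, 70.7, 62.0 and 55.0 with ZNF503, and 12.2, 23.7 and 38.9 with ZNF711. In VM it stood at 3.26, 5.55 and 32.5 CPM with TRAC, 5.24, 4.45 and 3.79 with LHX2, 4.90, 7.33 and 15.6 with ZNF503, and 19.2, 28.3 and 25.2 with ZNF711. AM libraries were above VM libraries of the same target for TRAC, LHX2 and ZNF503, and overlapped them for ZNF711, where VM was higher in replicates 1 and 2. The difference over the 4 targets was 1.88 on the log2 scale (SE 0.34, edgeR adjusted p 0.000286), with AM higher in 10 of 12 same-number pairs. It was 2.12 for TRAC (adjusted p 0.0438), 2.62 for LHX2 (0.0336), 2.74 for ZNF503 (0.016) and 0.03 for ZNF711 (0.988), by edgeR. The TRAC call held in 1 of 6 fits that left out a library: without VM TRAC replicate 3 the value was 3.80, and without any of the other 5 the adjusted p was 0.0853 to 0.140 (edgeR). The TRAC call was also lost with only the groups compared (edgeR adjusted p 0.154) and with a filter of 1 CPM in 3 libraries (0.0571). The LHX2 call likewise held in 1 of 6 such fits, with replicate 3 of AM LHX2 left out, and leaving out its replicate 2 gave 1.73 (edgeR adjusted p 0.246). The ZNF503 call was lost without AM ZNF503 replicate 1, VM ZNF503 replicate 1 or VM ZNF503 replicate 2 (edgeR adjusted p 0.0511 to 0.0804), and the value was 3.34 without VM ZNF503 replicate 3.

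TBX18 is also known from the epicardium, so 11 other epicardial markers were read beside it. Of these, 9 were tested, and over the 4 targets 3 were called higher and 2 lower in AM, beside 34.5% of all tested genes called. Their median was -0.26 beside -0.01 over all genes (log2). TCF21 was 3.31 higher (SE 0.35, edgeR adjusted p 1.42e-07) and BNC1 1.47 higher (SE 0.15, edgeR adjusted p 1.54e-08), while KRT19 was at -0.63 (SE 0.18, edgeR adjusted p 0.0101). WT1, a defining marker, was at 0 to 2.92 CPM in AM and 0.187 to 4.58 CPM in VM. Their sum was 327 to 535 CPM in AM and 340 to 744 CPM in VM. Their part in the TBX18 difference was not tested.

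TBX1 was high in only part of the AM libraries. In AM it was at 17.5, 28.0 and 4.00 CPM with TRAC, 19.2, 29.6 and 2.84 with LHX2, 27.7, 31.6 and 2.78 with ZNF503, and 5.09, 4.22 and 2.33 with ZNF711. In VM it was at 5.91, 5.35 and 4.31 CPM with TRAC, 4.30, 2.54 and 8.18 with LHX2, 3.74, 3.66 and 6.42 with ZNF503, and 19.9, 6.75 and 8.96 with ZNF711. The 6 AM libraries of replicates 1 and 2 with TRAC, LHX2 or ZNF503 were the highest but for VM ZNF711 replicate 1, and AM replicate 3 was below VM replicate 3 for each target. The difference over the 4 targets was 1.003 on the log2 scale and was not called (SE 0.41, edgeR adjusted p 0.0673). DESeq2 called it (0.99, adjusted p 0.0481), as did edgeR without a filter on low counts. It was also called with the block within each protocol (0.61, edgeR adjusted p 0.0109) and in replicates 1 and 2 alone (1.58, edgeR adjusted p 1.93e-05). In all, 4 of 24 fits with 1 library left out called it (edgeR adjusted p 0.0163 to 0.0415), namely those lacking AM replicate 3 of LHX2, TRAC or ZNF503, or VM ZNF711 replicate 1. Between the protocols within a target, that block also called TBX1 higher in AM for TRAC (1.27, edgeR adjusted p 0.00906), LHX2 (1.34, 0.00881) and ZNF503 (1.67, 0.001). With ZNF711 targeted all AM libraries were below all VM libraries, at -1.58 (SE 0.85, edgeR adjusted p 0.244), which the block within each protocol called (edgeR adjusted p 0.000634).

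TBX4 was the least abundant gene. It held 16 to 61 counts, or 3.21 to 11.1 CPM, in the AM libraries and 0 to 16 counts, or 0 to 3.26 CPM, in the VM libraries. In AM it was at 9.54, 8.87 and 11.1 CPM with TRAC, 5.75, 9.78 and 6.82 with LHX2, 4.43, 7.48 and 4.63 with ZNF503, and 7.13, 3.21 and 9.60 with ZNF711. In VM it was at 0.408, 1.64 and 2.23 CPM with TRAC, 2.06, 1.69 and 0.399 with LHX2, 0, 3.26 and 1.07 with ZNF503, and 1.23, 0.938 and 0.625 with ZNF711. For every target the AM libraries lay above the VM libraries, and AM was higher in 12 of 12 same-number pairs. TBX4 was 2.46 higher in AM on the log2 scale over the 4 targets (SE 0.34, edgeR adjusted p 2.87e-06). It was called for TRAC (2.73, adjusted p 0.00696), LHX2 (2.41, 0.0238) and ZNF711 (2.81, 0.00978) by edgeR. For ZNF503 the value of 1.88 passed with the replicate block (edgeR adjusted p 0.0331) and in the edgeR fit without it missed the threshold (0.0862), while DESeq2 called it (adjusted p 0.0298). That value was 1.34 without VM ZNF503 replicate 1 and 3.27 without VM ZNF503 replicate 2 (edgeR adjusted p 0.275 and 0.0138). The LHX2 call was lost on leaving out replicate 2 of AM LHX2, or replicate 2 or 3 of VM LHX2 (edgeR adjusted p 0.0562 to 0.118), and the ZNF711 call without VM ZNF711 replicate 3 (0.0560). In replicates 1 and 2 only, both calls were lost (LHX2 2.04, edgeR adjusted p 0.168, and ZNF711 2.22, 0.133). TBX2, its neighbour on the chromosome, moved in the opposite direction.

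**Figure D4:**
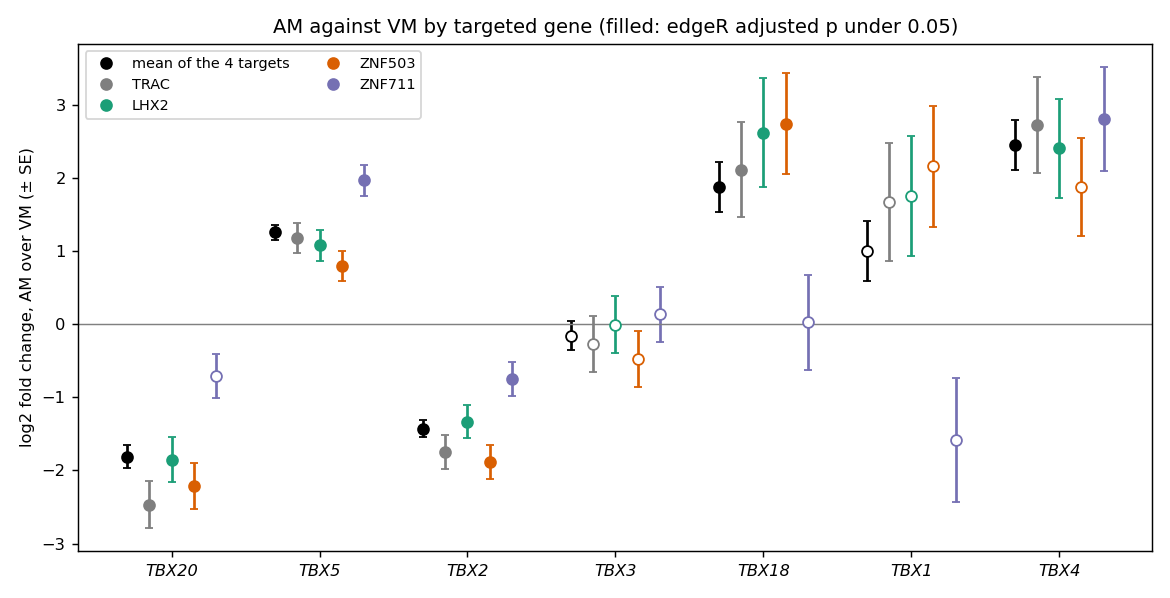
Log2 fold change of AM over VM for each T-box gene, over the 4 targets and for each target, from the edgeR fit without a block; bars are the standard error, and filled points have an adjusted p under 0.05. TBX20 and TBX2 lie below 0 for each target, TBX5 and TBX4 above it, and the ZNF711 values of TBX18 (0.03) and TBX1 (-1.58) lie apart from those of the other targets.

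Per length of exon, the order of the 7 genes differed between protocols. Median levels in AM were 65.4 CPM per kb for TBX20, 33.2 for TBX5, 9.58 for TBX3, 6.39 for TBX18, 5.95 for TBX2, 3.15 for TBX1 and 1.83 for TBX4. In VM they were 250.4 CPM per kb for TBX20, 16.8 for TBX2, 13.9 for TBX5, 10.2 for TBX3, 1.57 for TBX1, 0.760 for TBX18 and 0.288 for TBX4. By these medians TBX20 was the highest and TBX4 the lowest in both. In AM ZNF711, however, TBX1 had a lower mean than TBX4 (1.08 against 1.66 CPM per kb). TBX2 stood below TBX5 in all 12 AM libraries. In VM it stood above TBX5 in replicate 3 of each target and in all ZNF711 libraries, whereas TBX5 was the higher in 5 of the 6 remaining VM libraries. Lengths came from GENCODE 29, which may not be the annotation used for the counts.

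The second question was whether targeting LHX2, ZNF503 or ZNF711 changed these genes against TRAC. None of the 7 was called in any of the 6 comparisons without a block. The share of all tested genes called was 0% in AM LHX2, AM ZNF503, AM ZNF711, VM LHX2 and VM ZNF503, and 0.0169% in VM ZNF711. At an unadjusted p under 0.05 the edgeR fit held 1372, 309, 618, 463, 274 and 1666 genes in these comparisons, in the same order, and DESeq2 called 22, 1, 0, 1, 1 and 76 genes. DESeq2 called none of the 7. Fits with a replicate block, which pair libraries by number, did call some of them in the ZNF711 comparisons, as given below. Because the TRAC libraries are shared, the comparisons within a protocol are not independent.

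In VM, the ZNF711 libraries held less TBX20 and TBX5 than the TRAC libraries. The TBX20 libraries of VM ZNF711 (302, 295 and 224 CPM) were all below those of VM TRAC (591, 731 and 307 CPM), a difference of -0.99 on the log2 scale (SE 0.30, edgeR p 0.00385, adjusted p 0.28). TBX5 was at 37.9, 47.1 and 35.4 CPM against 65.9, 93.3 and 49.9 CPM, a difference of -0.79 (SE 0.21, edgeR p 0.00105, adjusted p 0.209). The 3 libraries of VM ZNF711 lay below all 3 of VM TRAC for both genes. TBX1 was at 19.9, 6.75 and 8.96 CPM against 5.91, 5.35 and 4.31 CPM, all above TRAC, at 1.19 (SE 0.82, edgeR adjusted p 0.685). The replicate block called TBX5 (edgeR adjusted p 0.0276), 1 of 7 beside 2.27% of genes. The block within each protocol called TBX5 (4.68e-05), TBX20 (0.0125), TBX3 (0.44 higher, 0.0381) and TBX1 (1.13 higher, 0.0498), 4 of 7 beside 8.35% of genes (edgeR adjusted p). In replicates 1 and 2 alone edgeR called TBX5, TBX20 and TBX18, 3 of 7 beside 4.97% of genes, and TBX18 was 2.45 higher there (adjusted p 0.00217) against 0.77 with all libraries (adjusted p 0.749). Without VM TRAC replicate 3, TBX5 was at -1.004 and TBX20 at -1.29 (edgeR adjusted p 0.0147 and 0.02).

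Marker sums were read beside these values, although edgeR called none of the 11 muscle and none of the 10 endoderm markers here. Over the 11 muscle markers VM ZNF711 held 13029 to 18621 CPM and VM TRAC 17238 to 43174 CPM, and over the 10 endoderm markers the ranges were 10157 to 24605 and 3290 to 23391 CPM. Set against the muscle markers, TBX20 was at 16.2 to 17.2 CPM per 1000 CPM in VM ZNF711 and 13.7 to 18.1 in VM TRAC. On that scale TBX5 was at 2.04 to 2.72 in VM ZNF711 and 1.53 to 2.89 in VM TRAC. For both genes the range of VM ZNF711 thus lay within that of VM TRAC. The muscle and endoderm sums of the groups overlapped. Of the 10 cell type lists, the 4 tested pluripotency markers and 1 untested one had the only sum without overlap, at 389 to 465 CPM in VM ZNF711 and 157 to 302 CPM in VM TRAC. Among the lists around the T-box genes, the chamber gene sum was lower without overlap (4617 to 6494 against 6542 to 16626 CPM in VM TRAC). So were the partner factor sum (968 to 1095 against 1111 to 1505 CPM) and the pacemaker sum (322 to 391 against 393 to 822 CPM). The retinoic acid response sum was higher without overlap (364 to 387 against 242 to 331 CPM), and the other sums of these lists overlapped. The part of these and the pluripotency sum in the TBX5 and TBX20 values was not tested.

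In AM, the ZNF711 libraries were higher in TBX20 (213, 155 and 134 CPM against 101, 91.1 and 103) and in TBX2 (62.9, 45.2 and 41.5 CPM against 32.6, 29.6 and 32.0). No library overlapped in either gene. The differences were 0.77 for TBX20 (SE 0.31, edgeR p 0.0212) and 0.67 for TBX2 (SE 0.23, edgeR p 0.00781), both with an adjusted p of 1. TBX18 was at 12.2, 23.7 and 38.9 CPM against 57.1, 60.5 and 67.6, all lower, at -1.32 (SE 0.64, edgeR p 0.0536, adjusted p 1). TBX1 was at 5.09, 4.22 and 2.33 CPM against 17.5, 28.0 and 4.00, at -2.07 (SE 0.84, edgeR p 0.0232, adjusted p 1). TBX3 was at 89.4, 64.2 and 106 CPM against 47.7, 30.0 and 70.1, at 0.81 (SE 0.39, edgeR p 0.0484, adjusted p 1). The last 2 groups of values overlapped, but each ZNF711 library lay on one side of the TRAC library of its own number. With the replicate block TBX3 was called higher (0.86, edgeR adjusted p 0.0196), 1 of 7 beside 0.0395% of genes. The block within each protocol called TBX3 (adjusted p 0.00122) and TBX1 (-1.98, 0.0139), 2 of 7 beside 0.53% of genes (edgeR). The muscle markers summed to 23625 to 32699 CPM in AM ZNF711 and 20156 to 24842 CPM in AM TRAC. TBX20 per 1000 CPM of marker was 4.74 to 7.21 and 4.13 to 5.01, which overlapped. On that scale TBX5 was at 5.24 to 6.17 in AM ZNF711 and 6.95 to 7.30 in AM TRAC, without overlap, although its CPM overlapped. The cell type lists whose sums did not overlap were ventricular (426 to 585 CPM in AM ZNF711 against 224 to 384 CPM in AM TRAC), endothelial (345 to 398 against 478 to 704 CPM) and pluripotency (179.83 to 203 against 159 to 179.81 CPM). Among the lists around the T-box genes, the atrioventricular canal sum was lower (2489 to 2883 against 3466 to 4970 CPM), and the BMP pathway sum (2007 to 2277 against 1742 to 1987 CPM) and the partner factor sum (1460 to 1704 against 1388 to 1451 CPM) were higher, without overlap. Their part in the values of the 5 T-box genes was not tested.

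**Figure D5:**
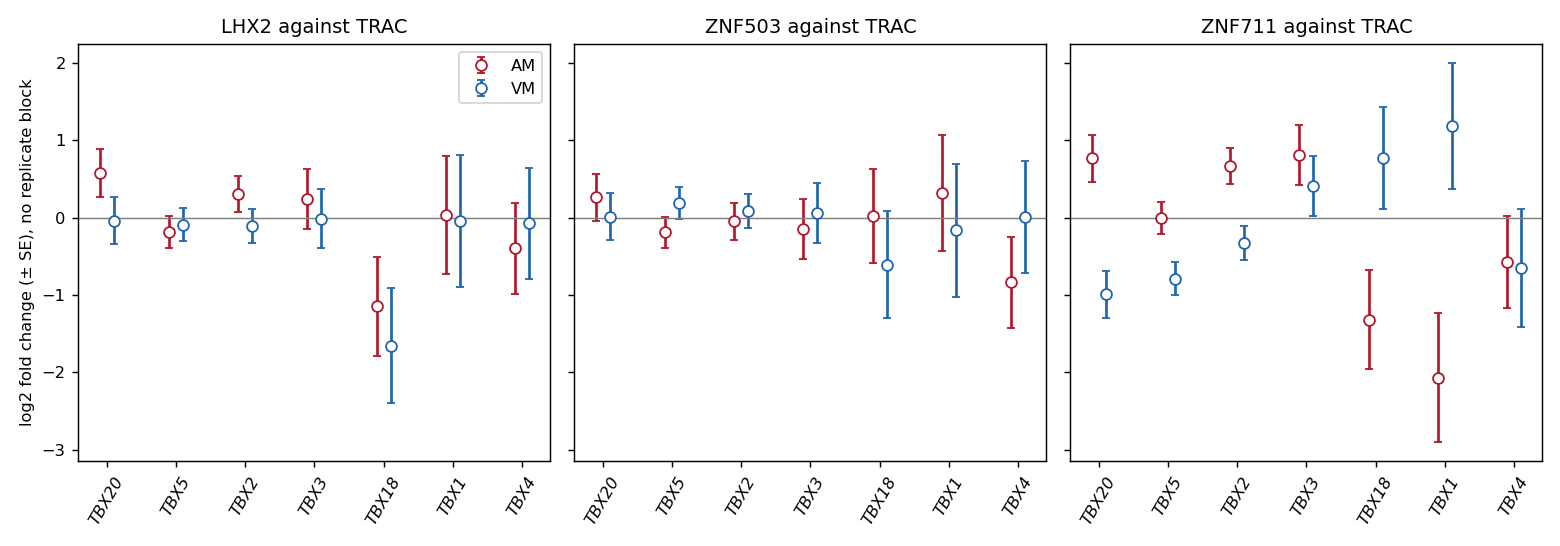
Log2 fold change against TRAC of the same protocol for each T-box gene, with LHX2, ZNF503 or ZNF711 targeted, from the edgeR fit without a block; red is AM, blue is VM and bars are the standard error. No point is filled because none had an adjusted p under 0.05, and the ZNF711 panel shows TBX20 at 0.77 in AM and -0.99 in VM.

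The ZNF711 differences in AM and VM were compared by their interaction. The AM effect minus the VM effect was 1.76 on the log2 scale for TBX20 (SE 0.43, edgeR p 0.000576, adjusted p 0.389), 1.0004 for TBX2 (SE 0.32, p 0.00462, adjusted p 0.538) and 0.79 for TBX5 (SE 0.29, p 0.0129, adjusted p 0.607). It was -3.25 for TBX1 (SE 1.17, edgeR p 0.0119, adjusted p 0.607) and -2.09 for TBX18 (SE 0.91, edgeR p 0.0347, adjusted p 0.731). None of the 7 was called, beside 0.00564% of all genes. At an unadjusted p under 0.05 edgeR held 1135 genes, and DESeq2 called 10 genes, of which TBX20 was 1 (adjusted p 0.0384). With the block within each protocol, TBX1 (edgeR adjusted p 0.000894), TBX5 (0.00415) and TBX20 (0.00703) were called, 3 of 7 beside 2.54% of genes. In replicates 1 and 2 alone 4 of 7 were called beside 1.61% of genes, with TBX18 at -4.16 (edgeR adjusted p 0.000763). The interactions of LHX2 and ZNF503 called none of the 7 beside 0% of genes each, with 660 and 346 genes at an unadjusted p under 0.05 by edgeR and 0 called by DESeq2.

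With LHX2 or ZNF503 targeted, few of the genes separated from TRAC in CPM. In AM LHX2, TBX18 was at 21.1, 53.3 and 9.66 CPM, all below TRAC, at -1.15 (SE 0.64, edgeR adjusted p 0.701). That value was -2.04 without AM LHX2 replicate 2 and -0.72 without its replicate 3. TBX20 was at 141, 112 and 186 CPM there, all above TRAC, at 0.58 (SE 0.31, edgeR adjusted p 0.69). The fibroblast (4118 to 5525 against 5666 to 6994 CPM) and smooth muscle sums (602 to 793 against 915 to 1492 CPM) of AM LHX2 lay below TRAC without overlap. So did the pacemaker (999 to 1070 against 1117 to 1156 CPM) and retinoic acid response sums (373 to 481 against 483 to 545 CPM). The other list sums overlapped. The part of these sums in the TBX18 and TBX20 values was not tested. In VM LHX2, TBX18 was at 5.24, 4.45 and 3.79 CPM against 3.26, 5.55 and 32.5 in TRAC, at -1.65 (SE 0.74, edgeR p 0.0398, adjusted p 1). Without VM TRAC replicate 3 that value was 0.02. TBX4 in AM ZNF503 was below TRAC in all 3 libraries, at -0.83 (SE 0.59, edgeR adjusted p 1). The other values of the 7 genes in these 4 comparisons lay between -0.61 and 0.32. TBX5-AS1 was at 1.87, 3.39 and 4.79 CPM in VM LHX2 against 6.93, 8.64 and 8.76 CPM in VM TRAC, all lower, at -1.28 (SE 0.31, edgeR p 0.000369, adjusted p 0.9999). This was not particular to VM LHX2. All libraries were also below TRAC in AM LHX2 (-0.54, SE 0.25, edgeR p 0.0395, adjusted p 0.629) and in VM ZNF711 (-0.91, SE 0.30, edgeR p 0.00601, adjusted p 0.304).

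Within a protocol, the genes did not follow one another in the same way. Correlations of log2 CPM over the 12 libraries of a protocol are given as a description, since these libraries share groups, replicate numbers and the marker shifts given above. TBX5 and TBX20 followed each other in VM (Pearson r 0.95, Spearman rho 0.96) and hardly in AM (0.20 and 0.37). TBX1 and TBX3 ran opposite in AM (r -0.92, rho -0.85) and together in VM (r 0.57, rho 0.77). TBX18 ran opposite to TBX20 in both (r -0.88 in AM and -0.82 in VM). Without the 2 libraries farthest from the median, these last values were -0.75 and -0.79.

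For each gene, the tested genes of mean log2 CPM 3 or more were searched for those most like it in both protocols, by the lower of the AM and VM Pearson r. TBX3 was most like SLC2A3, a glucose transporter (r 0.94 in AM and 0.95 in VM), and HAVCR1 (0.94 and 0.92). TBX20 was most like HRH2, a histamine receptor (0.91 and 0.90), and KCTD12 (0.89 and 0.90). For TBX18 the genes were SULF2 (0.91 and 0.91) and COL1A2, a fibrillar collagen (0.87 and 0.85). For TBX5 they were SVIL (0.91 and 0.94) and MIR1915HG (0.87 and 0.94), and for TBX2 they were RBM38 (0.85 and 0.80) and CPT2 (0.83 and 0.79). TBX1 was nearest to PCDH18 (0.78 and 0.74) and CAPN6 (0.75 and 0.79), and TBX4, itself at a mean log2 CPM of only 1.71, to TSPAN17 (0.85 and 0.58) and LRFN1 (0.65 and 0.56). Without the 2 libraries farthest from the median in each protocol, the lower r was 0.63 for TBX2 with RBM38, 0.74 for TBX5 with SVIL and 0.71 for TBX4 with LRFN1, and moved by less than 0.1 for the other 11 pairs. Under relative log expression scaling 12 of the 14 pairs were named again. Each value rests on 12 libraries per protocol and 11422 or 11423 genes compared.

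Genes that act with or under the T-box factors were read from lists, by the AM to VM difference over the 4 targets, in which 2979 of all 17724 tested genes were called higher and 3128 lower. Of 11 chamber genes that TBX5 or TBX20 activate and TBX2 or TBX3 repress, 3 were called higher in AM and 4 lower, with a median of -0.52 beside -0.01 over all genes (log2). ATP2A2, the calcium pump of the sarcoplasmic reticulum, was 1.04 higher (SE 0.09, edgeR adjusted p 1.72e-09) and GJA5, an atrial gap junction gene, 0.83 higher (SE 0.18, edgeR adjusted p 0.000792). GJA1, another gap junction gene, was lower, at -1.25 (SE 0.15, edgeR adjusted p 1.48e-06), and SMPX was at -0.52 (SE 0.13, edgeR adjusted p 0.00404). Of 12 partner factors 3 were called higher and 3 lower, with a median of 0.03. Among them GATA6 was at 1.41, MEF2C at 0.95, GATA4 at 0.53 and SALL4 at -0.68 (edgeR adjusted p at most 4.77e-05).

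Of 16 genes of the BMP pathway, which acts upstream of TBX2, TBX3 and TBX20, 4 were called higher and 3 lower, with a median of 0.04. BMP4 was at 2.39 (edgeR adjusted p 1.25e-09), BMP7 at 1.11 (2.80e-10), BMPR2 at 0.27 (0.00677) and SMAD6, an inhibitor, at -0.63 (6.06e-08). BMP2, a ligand that induces TBX2 in the atrioventricular canal, was at -0.68 (edgeR adjusted p 0.0133). Of 10 atrioventricular canal and cushion genes 2 were called higher and 3 lower, HAS2, a hyaluronan synthase, being lowest in p at -1.16 (edgeR adjusted p 3.85e-10). The lists were written with results of these data known.

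Lists of genes from the settings of TBX18 and TBX4 held more calls higher than lower in AM. Of 9 sinoatrial and pacemaker genes, 7 were called higher and none lower, with a median of 1.85. RGS6 was at 1.92, CACNA1D, a pacemaker calcium channel, at 1.85 and ISL1 at 1.72 (edgeR adjusted p at most 2.46e-10). SHOX2, a sinoatrial factor, stood at 72.7 to 242 CPM in AM and 0 to 4.46 CPM in VM. HCN4, the main pacemaker channel, was at 0.13 and not called (edgeR adjusted p 0.561). Of 10 posterior and lung mesenchyme genes 8 were tested, and 5 were called higher and 1 lower, with a median of 1.46. OSR1 was at 3.08 and PTCH1, a Hedgehog receptor, at 1.16 (edgeR adjusted p 1.13e-08 and 2.89e-11), and FOXF1 stood at 2.24 to 10.4 CPM in AM and 0 to 0.594 CPM in VM. Of 8 second heart field and pharyngeal genes, which include the TBX1 setting, 4 were called higher and 3 lower, with ISL1 at 1.72, FGF8 at -1.47 and FGF10 at -0.82 (edgeR adjusted p at most 8.35e-05).

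Of 11 retinoic acid response genes, 5 were called higher and 2 lower in AM, with a median of 0.38. CRABP2 was at 0.98, and CYP26C1, which degrades retinoic acid, was at -5.11 (edgeR adjusted p at most 6.82e-06). Of 10 other T-box genes only MGA, TBX6 and TBX19 were tested, and none was called. In the 6 comparisons against TRAC, edgeR called no gene of the 9 lists described in these last paragraphs.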

How the data were processed

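RNA-seq libraries of 8 groups, 3 each, were analysed from the deposited table of counts per gene. Per the submitters' processing notes the authors aligned reads with STAR to GRCh38. The counting program, its strand setting and the annotation release are not given in the sources used here, and the labels name polyA RNA in one field and ribosomal depletion in another. Of 62757 genes, 23919 had no count. Genes were filtered with filterByExpr, scaled by TMM and tested in one fit over the 8 groups with edgeR 4.0.16 (quasi-likelihood, R 4.3.3, limma 3.58.1), with Benjamini-Hochberg adjustment over 17724 genes. The fit was tested on simulated data. Same-numbered libraries deviated together (correlations 0.12 to 0.79, all 30 pairs over 0.1, 11423 genes), although the labels do not say what a number stands for. The main fit did not pair libraries by number. Pairing entered the tests only through the replicate blocks among the alternatives. The spread between libraries estimated by edgeR (biological coefficient of variation) was 25.02% in the main fit. It was 16.94% with the replicate block and 14.25% with the block within each protocol. Alternatives were DESeq2 1.42.0, other scalings and filters, replicate blocks, replicates 1 and 2 only, and leaving out each library. The 7 genes and the gene lists were chosen with earlier results of these data known. All 7 were described for AM against VM. Against TRAC, those with p under 0.05 or without overlap between groups were named, and for each list up to 4 genes of lowest p. Some genes that this rule names are not reported here. HCN4, BMP2 and WT1 were added after their values were seen. Promoters and lengths came from RefSeq and GENCODE 29.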

Additional observations from a re-analysis of the deposited data

Results flagged for a closer look

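TBX20 was singled out because its ZNF711 libraries lay wholly on opposite sides of TRAC in the protocols. All 3 AM ZNF711 libraries were above all 3 AM TRAC libraries, and all 3 VM ZNF711 libraries were below all 3 VM TRAC libraries. The AM difference minus the VM difference was 1.76 on the log2 scale (edgeR p 0.000576, adjusted p 0.389), so edgeR without a block did not call it. It was called by DESeq2 (adjusted p 0.0384), by edgeR with the block within each protocol (1.69, adjusted p 0.00703), in replicates 1 and 2 only (2.06, adjusted p 0.000205), without VM TRAC replicate 3 (2.05, adjusted p 0.0403) and with no filter. TBX1 (-2.07 in AM and 1.19 in VM), TBX2 (0.67 and -0.33) and TBX18 (-1.32 and 0.77) also had opposite signs, with libraries that overlapped in at least 1 protocol. For TBX20 the separation from TRAC in AM was not particular to ZNF711. All AM LHX2 libraries also lay above AM TRAC (0.58, edgeR adjusted p 0.69) and overlapped those of AM ZNF711. AM TRAC had the lowest TBX20 mean of the 8 groups, at 98.3 CPM.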

How the results depend on the processing

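Over 52 results on single T-box genes, 22 of them called, leaving out a library gave the same side of the threshold in 429 cases, lost a call in 23, gained one in 9 and changed the sign in 7. The other settings gave 397, 6, 57 and 8. No called result changed sign. Over the 4 targets, 2979 of 6107 called genes were higher in AM with TMM scaling and 3797 of 6293 by library size alone, and 3 T-box genes were higher and 2 lower in both. Numbers of the 7 genes called moved by over 1.5 times as follows. With no filter on low counts, 5 were called in AM ZNF711 against VM ZNF711, beside 2550 of 38838 tested genes. Against AM TRAC that setting called 1 in AM LHX2 (beside 97 genes) and 4 in AM ZNF711 (99). Against VM TRAC it called 1 in VM LHX2 (136) and 2 in VM ZNF711 (495), and in the ZNF711 interaction 3 (209). With only the groups compared, 5 were called in AM ZNF711 against VM ZNF711, beside 2989 of 15115 genes. DESeq2 called 1 in the ZNF711 interaction, beside 10 of 17723 genes. The replicate block called 1 in AM ZNF711 (beside 0.0395% of genes) and 1 in VM ZNF711 (2.27%) against TRAC. The replicate block within each protocol called 7 in AM ZNF503 against VM ZNF503 (18.9%) and 5 in AM ZNF711 against VM ZNF711 (27.8%). It called 2 in AM ZNF711 (0.53%) and 4 in VM ZNF711 (8.35%) against TRAC, and 3 in the interaction (2.54%). With replicates 1 and 2 only the numbers were 2, 3 and 4 for AM ZNF711 against TRAC, VM ZNF711 against TRAC and the interaction. Beside these, 42, 897 and 291 of 18055 genes were called, in that order. Leaving out each library gave 3 to 5 in AM LHX2 against VM LHX2, 1 to 3 in ZNF711, 0 to 3 in VM ZNF711 against TRAC and 0 to 1 in the interaction. The fits with 3 in LHX2 called 902, 1148 and 1130 genes, and that with 1 in AM ZNF711 against VM ZNF711 called 1331. The fit with 3 in VM ZNF711 against TRAC called 637 genes, and that with 1 in the interaction 28. These fits tested 18468 to 18516 genes.

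Smaller moves were 6 called over the 4 targets by DESeq2 and with no filter, 6 for TRAC, LHX2 and ZNF503 with no filter, 6 for LHX2 with the replicate block within each protocol, 6 for TRAC in replicates 1 and 2 only, 5 for ZNF503 by DESeq2, and 4 for TRAC with the 1 CPM filter, with only the groups compared, and without any 1 of its libraries but VM TRAC replicate 3. The shares of all genes called in these fits are not given here, so these counts are not read as results about the 7 genes. Such shares moved with the setting. Between the TRAC controls the share was 11.3% in the main fit and 23.7% with the block within each protocol.

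Values that changed sign belonged to uncalled results. TBX3 in AM LHX2 against VM LHX2 was 0.090 by library size alone, 0.0051 with the replicate block, 0.0018 with the block within each protocol, 0.044 in replicates 1 and 2 only, and -0.37 to 0.41 on leaving out each library. In AM ZNF711 against VM ZNF711 TBX3 ranged from -0.031 to 0.35 on leaving out each library. TBX18 there was -0.035 with the replicate block, -0.0076 with the block within each protocol, -0.43 in replicates 1 and 2 only, and -0.43 to 0.36 on leaving out each library. TBX18 in VM LHX2 against VM TRAC was 0.14 in replicates 1 and 2 only and -2.11 to 0.023 on leaving out each library. The cause was not tested. With only the groups compared, TBX4 had too few counts to be tested within VM. Depth limits TBX4 most, at 0 to 16 counts in VM.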

Other observations

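Markers of other cell types were read for the AM to VM difference over the 4 targets. The counts stand beside 34.5% of all tested genes called in that comparison, and were not tested against that share. Of 7 tested fibroblast markers 3 were called higher in AM and none lower (median 0.36 on the log2 scale), and of 7 endothelial markers 4 were higher and none lower (median 0.44). Of 4 smooth muscle markers 2 were higher and 1 lower, and of 5 tested neural markers 2 were higher. Of 10 endoderm markers 1 was higher and 4 were lower (median -0.67), and of 4 tested pluripotency markers 3 were lower (median -0.71), all by edgeR at an adjusted p under 0.05.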
